A study of Mus musculus with 12 samples.

Results

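Transcription factors that mark thalamic neurons were followed by RNA sequencing in the mouse ventroposterior medial nucleus (VPM), the part of the thalamus through which facial touch reaches the somatosensory cortex. The set held 10 genes, Gbx2, Tcf7l2, Lef1, Prox1, Foxp2, Sox2, Zic1, Zic4, Shox2 and Zfhx3, of the 55359 genes in the deposited count tables. They were taken by symbol, each matched 1 Ensembl identifier, and all 10 passed the filter on low counts. Tissue was microdissected at postnatal day 0 from brain sections of 300 µm, and each library held tissue pooled from 5 brains, which makes each replicate a pool. The groups were embWPC ALBSF, Ctrl PMBSF and Ctrl ALBSF, with 4 libraries each. Per the series design, PMBSF is the postero-medial barrel subfield, which takes whisker pad input, and ALBSF the antero-lateral barrel subfield, which takes input of the upper lip. The labels give embWPC as a treatment without spelling it out and Ctrl as control. They state no genotype, strain or sex, and none of the 12 libraries came from the PMBSF of embWPC pups. The comparisons ask how the 10 genes differ between the territories of control pups at birth, and where the upper lip territory of embWPC pups stands against each of them.

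Postmitotic neurons of the thalamus acquire their identity through a small network of transcription factors. Gbx2, a homeodomain factor, comes on as thalamic neurons leave the cell cycle and is needed for their axons to reach the cortex in mice. Tcf7l2 and Lef1 are HMG-box proteins that bind DNA on behalf of beta-catenin, the effector of canonical Wnt signalling, and Tcf7l2 is needed for the electrical and molecular maturation of mouse thalamic neurons. Sox2, Foxp2, Shox2, Prox1, Zfhx3 and the Zic genes add finer differences between progenitors, nuclei and neuron types. The counts come from bulk tissue, in which fewer cells of a type and less RNA per cell cannot be told apart.

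Libraries held 28457046 to 34512840 counts. Levels are given as CPM, counts scaled to the size of each library after TMM normalization. Slc17a6, a glutamate transporter gene that marks excitatory relay neurons, lay at 366 to 430 CPM in embWPC ALBSF, 349 to 404 CPM in Ctrl PMBSF and 336 to 391 CPM in Ctrl ALBSF. Gad2, a marker of the inhibitory neurons of the neighbouring prethalamus and reticular nucleus, lay at 1.14 to 6.10 CPM in embWPC ALBSF, 2.23 to 7.47 CPM in Ctrl PMBSF and 0.959 to 8.37 CPM in Ctrl ALBSF. Pou4f1, a marker of the adjacent habenula, had at most 6 counts in a library. The 9 tested genes of the habenula list, without Pou4f1, held more in total. Sums were 114 to 143 CPM in embWPC ALBSF, 137 to 175 CPM in Ctrl PMBSF and 102 to 130 CPM in Ctrl ALBSF. The 15 tested prethalamic and reticular markers ranged widely. They summed to 17.0 to 70.5 CPM in embWPC ALBSF, 20.9 to 99.1 CPM in Ctrl PMBSF and 11.9 to 103 CPM in Ctrl ALBSF. Summed over 15 tested meningeal fibroblast markers, such as the collagen gene Col3a1, libraries held 17.0 to 21.0 CPM in embWPC ALBSF, 21.8 to 118 CPM in Ctrl PMBSF and 24.8 to 27.5 CPM in Ctrl ALBSF. None of the 17 meningeal markers in the files was at 0 in all 12 libraries.

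Per length, Tcf7l2 and Sox2 stood well above the other factors. Levels between genes are given as CPM per kilobase of the union of a gene's exons, averaged over the 12 libraries. Tcf7l2 averaged 100 CPM per kilobase and Sox2 86.9, at percentiles 98.2 and 97.9 of the 17432 tested genes with a length. Shox2 followed at 13.3, Lef1 at 10.9, Foxp2 at 8.41 and Zfhx3 at 5.33 CPM per kilobase. Prox1 lay at 4.55, Zic1 at 4.16, Gbx2 at 2.72 and Zic4 at 1.51 CPM per kilobase, and Zic4 stood at percentile 47.1. Of the 9 neighbouring pairs in this order, 8 had overlapping ranges over the 12 libraries, and only the step between Sox2, at 65.6 to 108 CPM per kilobase, and Shox2, at 11.97 to 15.92, was clear of both ranges. Tcf7l2 was above Sox2 in 7 of 12 libraries, and Prox1 was above Zic1 in 5 of 12. With the length of the canonical transcript in place of the exon union, Lef1 (40.1 CPM per kilobase) and Foxp2 (21.3) moved above Shox2 (14.1), and Zic4 (3.47) moved above Gbx2 (2.77).

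**Figure D1:**
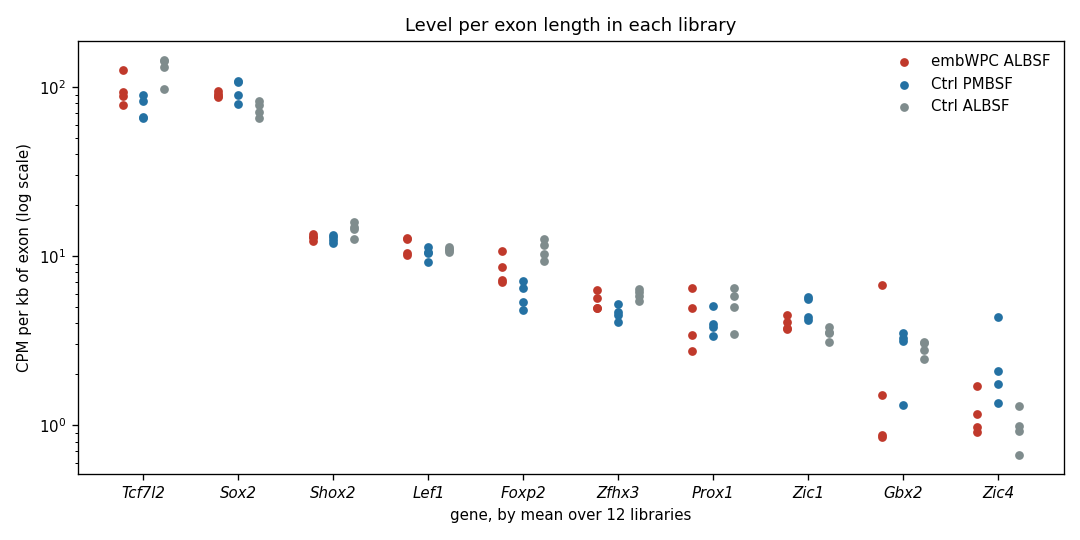
Level of each factor in CPM per kilobase of exon on a log scale, in embWPC ALBSF (red, left), Ctrl PMBSF (blue, middle) and Ctrl ALBSF (grey, right), with 1 point per library and genes ordered by their mean over 12 libraries. Tcf7l2 and Sox2 lie apart from the other 8 genes. Ctrl PMBSF and Ctrl ALBSF libraries do not overlap in 5 of the 10 genes, and for Sox2 embWPC ALBSF lies above Ctrl ALBSF.

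Between the 2 territories of control pups, 2 factors fell and 1 rose in the whisker pad territory. Foxp2 and Tcf7l2 were lower in Ctrl PMBSF than in Ctrl ALBSF, at 0.542 and 0.590 of the Ctrl ALBSF level, and Zic1 was higher, by 1.41-fold. The remaining 7 factors did not pass the test. With edgeR's quasi-likelihood test and Benjamini-Hochberg adjustment over all 17501 genes tested, 3 of 10 factors (30%) had an adjusted p under 0.05, where 1.62% of all genes did (284 genes, 142 higher and 142 lower). At an unadjusted p under 0.05 stood 7 of the 10, against 11.8% of all genes. For 5 of the 10, all 4 libraries of a territory lay beyond all 4 of the other, which 8.28% of all genes showed. The median absolute log2 change of the 10 was 0.37, against 0.13 over all genes, and their median signed change was -0.14, against 0.00. The 10 were chosen with earlier results of these data known, so these shares and medians describe the set and do not test it.

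Same-numbered Ctrl PMBSF and Ctrl ALBSF libraries deviated together from their group means, and in a fit of these 8 libraries with the number as a block 6 of the 10 factors were called. Foxp2 (adjusted p = 0.000184), Tcf7l2 (0.00869) and Zfhx3 (0.00587) were then lower in Ctrl PMBSF, and Zic4 (0.000254), Sox2 (0.0113) and Zic1 (0.0206) were higher. That fit called 857 genes, 5.04% of the 17000 tested in it, and these held 283 of the 284 called without the block. With the block in the fit of all 12 libraries, Zic4 was called (adjusted p = 0.0477) and Zic1 was not (0.0532).

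**Figure D2:**
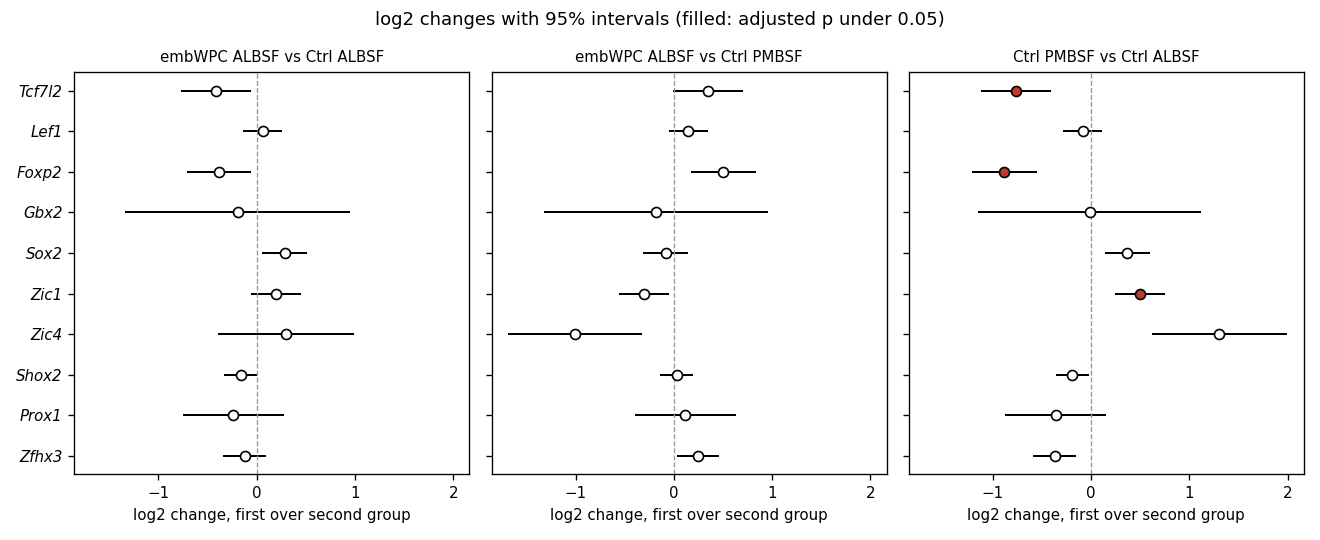
Log2 change of each factor with its 95% interval in the 3 comparisons, the first named group over the second. Filled points passed an adjusted p under 0.05 in edgeR, which 3 factors did in Ctrl PMBSF against Ctrl ALBSF and none did with embWPC ALBSF.

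In the upper lip territory of embWPC pups none of the 10 factors passed the test against either control territory. Against Ctrl ALBSF, edgeR called 0 of 10, where 0.0629% of all genes were called (11 genes), and DESeq2 and limma voom also called 0 of 10. At an unadjusted p under 0.05 stood 4 of the 10, against 9.22% of all genes. These were Tcf7l2 (log2 change -0.42 ± 0.16 SE), Foxp2 (-0.38 ± 0.15), Sox2 (0.28 ± 0.10) and Shox2 (-0.16 ± 0.07). Sox2 alone of the 10 had all 4 embWPC ALBSF libraries beyond all 4 Ctrl ALBSF libraries, which 5.74% of all genes showed. Against Ctrl PMBSF, edgeR again called 0 of 10, where 0.00571% of all genes were called (1 gene), and DESeq2 and limma voom called 0 of 10. At an unadjusted p under 0.05 stood 4 of the 10, against 9.47% of all genes, namely Foxp2 (0.50 ± 0.15), Zic4 (-1.003 ± 0.313), Zic1 (-0.30 ± 0.11) and Zfhx3 (0.25 ± 0.10). None of the 10 had groups that were apart there, which 4.73% of all genes showed. These comparisons share libraries with each other and with the control comparison.

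**Figure D3:**
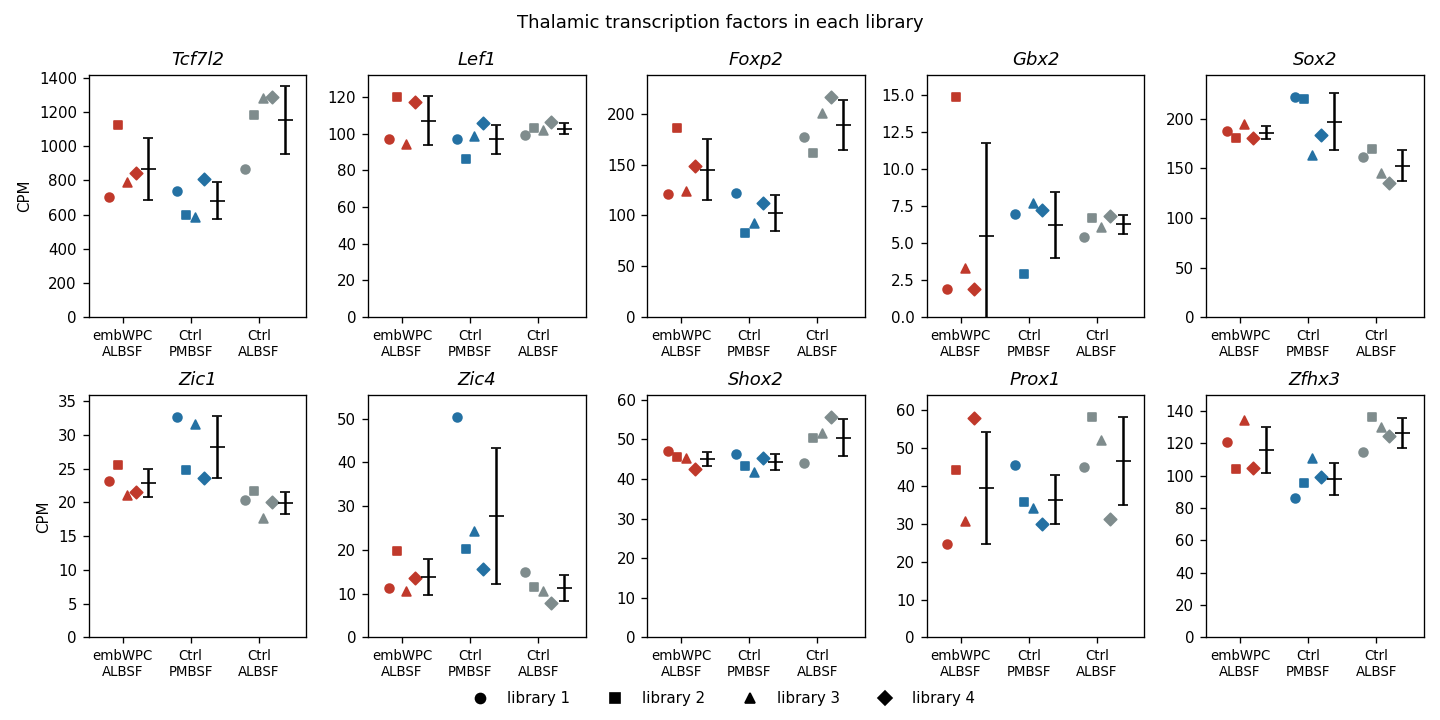
CPM of each factor in every library, with embWPC ALBSF left, Ctrl PMBSF in the middle and Ctrl ALBSF right in each panel. Symbols mark the library number, and bars give the mean and SD over 4 libraries. Foxp2 and Tcf7l2 are lowest in Ctrl PMBSF, Zic1 and Zic4 highest there, and Gbx2 has 1 high embWPC ALBSF library.

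Tcf7l2, on chr19:55730188-55922091 (GRCm39, plus strand), had the highest mean level per length of the 10. Its libraries held 703, 1126, 791 and 842 CPM in embWPC ALBSF, 737, 595, 587 and 805 CPM in Ctrl PMBSF, and 867, 1181, 1280 and 1289 CPM in Ctrl ALBSF. Every Ctrl PMBSF library lay below every Ctrl ALBSF library, while embWPC ALBSF overlapped both, its second library standing among the Ctrl ALBSF values. Ctrl PMBSF averaged 681 ± 108 CPM and Ctrl ALBSF 1154 ± 198 CPM (SD, n = 4 each), a log2 change of -0.76 ± 0.16 (SE, edgeR adjusted p = 0.0301). It was lower in Ctrl PMBSF in 4 of 4 same-numbered pairs. Leaving out single libraries gave log2 changes of -0.88 to -0.69 with adjusted p from 0.0126 to 0.115, and the call held without Ctrl ALBSF 1 or Ctrl PMBSF 4 and ended without Ctrl PMBSF 1, 2 or 3, and likewise without Ctrl ALBSF 2, 3 or 4. embWPC ALBSF averaged 865 ± 183 CPM, with a log2 change of -0.42 (95% interval -0.76 to -0.07, adjusted p = 0.458) against Ctrl ALBSF and 0.35 (-0.00 to 0.69, adjusted p = 0.527) against Ctrl PMBSF.

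The promoter of the first of 2 listed Tcf7l2 starts is shown because Tcf7l2 was one of the called factors and, with Lef1, a Wnt effector of the set. The sequence, from RefSeq's promoter table with its position found again in GRCm39, covers chr19:55729992-55730291 on the plus strand, 250 bases before to 50 bases after the start. Capitals mark matches, on either strand, to letters that HMG-box, forkhead, ZIC and homeodomain proteins are known to bind.
Tcf7l2 promoter: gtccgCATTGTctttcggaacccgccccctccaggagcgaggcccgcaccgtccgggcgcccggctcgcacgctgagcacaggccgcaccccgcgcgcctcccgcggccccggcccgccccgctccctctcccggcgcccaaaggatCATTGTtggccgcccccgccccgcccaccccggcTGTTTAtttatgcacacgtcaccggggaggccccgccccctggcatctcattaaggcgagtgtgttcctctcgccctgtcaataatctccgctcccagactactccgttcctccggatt
The window holds the SOX-type letters CATTGT at positions 6 and 148, counted from its 5′ end, and the forkhead-type letters TGTTTA at position 182, with no overlap between matches. Of 32851 promoter windows of this length, 12.6% hold CATTGT and 13.4% hold TGTTTA. The TCF/LEF-type letters CTTTGA, held by 16% of windows, are not in it. Over the 14 starts that the table gives for 9 of the 10 factors, CTTTGA was found in 4, CATTGT in 2, TGTTTA in 3, the ZIC-type letters CAGCAGG (10.5% of windows) in 2 and the homeodomain letters TAATTA (5.29% of windows) in 0. Both CAGCAGG matches belong to 1 factor, Lef1, and are the same bases in 2 overlapping windows.

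Lef1, the family relative of Tcf7l2 on chr3:130903919-131018005 (plus strand), did not pass the test in any comparison. Its libraries held 97.2, 120, 94.1 and 117 CPM in embWPC ALBSF, 96.9, 85.9, 98.7 and 106 CPM in Ctrl PMBSF, and 99.0, 103, 102 and 106 CPM in Ctrl ALBSF. The 3 groups overlapped, and Ctrl PMBSF was the lower of each same-numbered control pair, by 0.01 to 0.26 on the log2 scale. The log2 change of Ctrl PMBSF against Ctrl ALBSF was -0.08 with a 95% interval of -0.27 to 0.11 (edgeR adjusted p = 0.788), an interval that stops short of the Tcf7l2 value. The log2 ratio of Lef1 to Tcf7l2 counts, in which scaling between libraries cancels, averaged -3.00 ± 0.19 in embWPC ALBSF, -2.81 ± 0.17 in Ctrl PMBSF and -3.48 ± 0.24 in Ctrl ALBSF (SD, n = 4 each). On the linear scale the ratio was 0.138, 0.107, 0.119 and 0.139 in the embWPC ALBSF libraries, 0.131, 0.144, 0.168 and 0.131 in those of Ctrl PMBSF, and 0.114, 0.0872, 0.0796 and 0.0824 in Ctrl ALBSF. It was higher in all 4 Ctrl PMBSF libraries than in any Ctrl ALBSF library, by 0.67 on the log2 scale (two-sided exact permutation p = 0.0286, the smallest that 4 against 4 allows, adjusted p = 0.114 over 6 comparisons of ratios). An exact sign-flip test of the same-numbered pairs gave p = 0.125, the smallest that 4 pairs allow. embWPC ALBSF differed by 0.48 from Ctrl ALBSF (exact permutation p = 0.0571, adjusted p = 0.114). Exons of Lef1 overlap those of the antisense gene Lef1os1 over 16.3% of their length, and whether counting used strand is not given in the sources used here, so reads of the pair cannot be told apart.

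Foxp2, a forkhead repressor of postmitotic thalamic neurons on chr6:14901287-15441976 (plus strand), showed the smallest p of the 10 in the control comparison. Its libraries held 121, 186, 124 and 149 CPM in embWPC ALBSF, 122, 82.4, 92.7 and 112 CPM in Ctrl PMBSF, and 177, 162, 200 and 217 CPM in Ctrl ALBSF. The control territories did not overlap, and of the embWPC ALBSF libraries the second reached into the Ctrl ALBSF range while the first lay within the Ctrl PMBSF range. Ctrl PMBSF averaged 102 ± 18.1 CPM and Ctrl ALBSF 189 ± 24.5 CPM (SD, n = 4 each), a log2 change of -0.88 ± 0.15 (SE, edgeR adjusted p = 0.00665). The call held when any single library was left out, with log2 changes of -0.99 to -0.79 and adjusted p from 0.00760 to 0.0326. In the 4 same-numbered pairs Ctrl PMBSF was lower by 0.53 to 1.11 on the log2 scale. embWPC ALBSF averaged 145 ± 30 CPM, with log2 changes of -0.38 (95% interval -0.70 to -0.06, adjusted p = 0.458) against Ctrl ALBSF and 0.50 (0.18 to 0.82, adjusted p = 0.347) against Ctrl PMBSF. Foxp1, a close relative of Foxp2 and a factor of striatal and cortical neurons, was also lower in Ctrl PMBSF, at 34.8 CPM against 68.9 CPM in Ctrl ALBSF (log2 change -0.98 ± 0.18, adjusted p = 0.0102).

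When the mean level of the meningeal markers was added to the fit, Foxp2, Tcf7l2 and Zic1 missed the threshold between the control territories. The log2 changes were then -0.71 for Foxp2 (edgeR adjusted p = 0.0910), -0.69 for Tcf7l2 (0.153) and 0.60 for Zic1 (0.0541), while Zic4 was called with 1.72 (0.0249). Ctrl PMBSF had the higher mean for 14 of the 15 tested markers, with 0 called and a median log2 change of 1.29. Across the Ctrl PMBSF libraries the mean log2 CPM of these markers was 0.16 in library 1, 2.31 in library 2, 1.33 in library 3 and 1.03 in library 4, against 0.05 to 0.39 in Ctrl ALBSF. Library 1, whose meningeal level lay within the Ctrl ALBSF range, held 737 CPM of Tcf7l2 and 122 CPM of Foxp2, below all Ctrl ALBSF libraries, and the highest Zic1 and Zic4 of the 12. Its log2 differences from Ctrl ALBSF 1 were -0.23 for Tcf7l2 and -0.53 for Foxp2, the smallest of the 4 same-numbered pairs for both genes. The part of meningeal tissue in these differences was not tested beyond this fit.

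Zic1 and Zic4 encode zinc finger factors best known from the dorsal neural tube and the cerebellum, and lie next to each other on chromosome 9. Zic1 covers chr9:91240111-91247863 on the minus strand and Zic4 covers chr9:91244149-91271402 on the plus strand, so that they are read in opposite directions. They share 172 exonic bases, where reads could not be assigned to either without strand. Zic1 libraries held 23.2, 25.6, 21.0 and 21.5 CPM in embWPC ALBSF, 32.6, 24.8, 31.7 and 23.7 CPM in Ctrl PMBSF, and 20.3, 21.6, 17.7 and 20.1 CPM in Ctrl ALBSF. All Ctrl PMBSF libraries were above all Ctrl ALBSF libraries, with means of 28.2 ± 4.61 CPM in Ctrl PMBSF and 19.9 ± 1.65 CPM in Ctrl ALBSF (SD, n = 4 each; log2 change 0.50 ± 0.11 SE, edgeR adjusted p = 0.0403). With single libraries left out the adjusted p ran from 0.0241 to 0.157, and the call held without Ctrl PMBSF 2 or 4 and was lost without Ctrl PMBSF 1 or 3 or any Ctrl ALBSF library. It was also lost with library totals only (edgeR adjusted p = 0.0564) and in the fit of the 2 groups only (0.0689), and 9 of 19 alternatives called it. embWPC ALBSF averaged 22.8 ± 2.1 CPM, with log2 changes of 0.20 (95% interval -0.05 to 0.44) against Ctrl ALBSF and -0.30 (-0.55 to -0.06) against Ctrl PMBSF.

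Zic4 libraries held 11.4, 19.8, 10.6 and 13.5 CPM in embWPC ALBSF, 50.3, 20.3, 24.4 and 15.6 CPM in Ctrl PMBSF, and 15.0, 11.5, 10.7 and 7.77 CPM in Ctrl ALBSF. The control territories did not overlap, yet Ctrl PMBSF 1 alone held more than 3 times the level of Ctrl PMBSF 4. Ctrl PMBSF averaged 27.7 ± 15.5 CPM and Ctrl ALBSF 11.2 ± 3.0 CPM, a log2 change of 1.30 with a 95% interval of 0.63 to 1.98 that missed the threshold (edgeR adjusted p = 0.0578). Without Ctrl PMBSF 1 the change was 0.84 (adjusted p = 0.125), and without Ctrl PMBSF 4 the gene was called (adjusted p = 0.0267). Within same-numbered pairs Ctrl PMBSF was higher by 0.82 to 1.74 on the log2 scale in 4 of 4, and the fits with the block called Zic4, as given above. embWPC ALBSF averaged 13.8 ± 4.2 CPM, with log2 changes of 0.30 (-0.38 to 0.98) against Ctrl ALBSF and -1.003 (-1.67 to -0.33, adjusted p = 0.363) against Ctrl PMBSF, and the second of these was called only when no filter on low counts was used (adjusted p = 0.0344). The log2 ratio of Zic1 to Zic4 counts averaged 0.76 ± 0.31 in embWPC ALBSF, 0.16 ± 0.54 in Ctrl PMBSF and 0.86 ± 0.39 in Ctrl ALBSF (SD, n = 4 each). It differed by -0.71 between Ctrl PMBSF and Ctrl ALBSF (two-sided exact permutation p = 0.0571, adjusted p = 0.114 over 6 comparisons).

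The promoters of the Zic pair are shown because the starts given for them in RefSeq's table lie 3204 bases apart and the genes varied together. The annotated Zic4 gene begins further upstream, within the span of Zic1. The Zic1 window covers chr9:91247772-91248071 on the minus strand and the Zic4 window chr9:91250775-91251074 on the plus strand (GRCm39), each written 5′ to 3′ on the strand of its gene and taken from RefSeq's table as above.
Zic1 promoter: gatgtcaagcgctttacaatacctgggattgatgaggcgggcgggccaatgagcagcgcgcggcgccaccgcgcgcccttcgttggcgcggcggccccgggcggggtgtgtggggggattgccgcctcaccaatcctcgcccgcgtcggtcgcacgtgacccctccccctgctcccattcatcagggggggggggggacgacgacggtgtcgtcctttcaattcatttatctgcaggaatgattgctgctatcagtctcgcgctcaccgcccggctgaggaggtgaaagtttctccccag
Zic4 promoter: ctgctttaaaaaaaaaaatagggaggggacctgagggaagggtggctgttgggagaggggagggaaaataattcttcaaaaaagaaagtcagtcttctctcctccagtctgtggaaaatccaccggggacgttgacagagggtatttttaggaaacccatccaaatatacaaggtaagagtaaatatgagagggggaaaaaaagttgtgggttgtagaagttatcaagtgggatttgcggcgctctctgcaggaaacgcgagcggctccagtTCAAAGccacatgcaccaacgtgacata
The Zic1 window, with 65.3% G and C, held none of the 5 sets of letters searched. The Zic4 window, with 46% G and C, held the TCF/LEF-type letters at position 273, in reverse as TCAAAG. No match says only that these letters are not in the window.

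**Figure D4:**
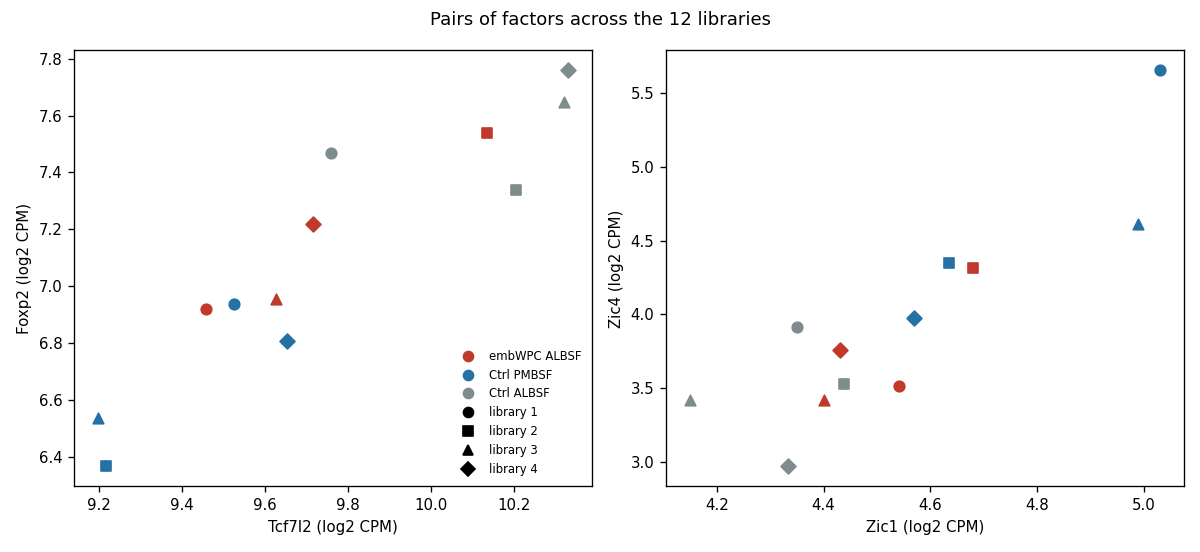
Log2 CPM of Foxp2 against Tcf7l2 (left) and of Zic4 against Zic1 (right), with 1 point per library, colours for groups and symbols for library numbers. Ctrl ALBSF libraries sit at high Tcf7l2 and Foxp2, and Ctrl PMBSF libraries sit at high Zic1 and Zic4.

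Sox2, an HMG-box factor of neural progenitors that thalamic neurons also keep after birth in mice, lies on chr3:34704554-34706610 (plus strand). Its libraries held 188, 181, 195 and 180 CPM in embWPC ALBSF, 222, 220, 163 and 183 CPM in Ctrl PMBSF, and 162, 170, 145 and 135 CPM in Ctrl ALBSF. All embWPC ALBSF libraries were above all Ctrl ALBSF libraries, whereas Ctrl PMBSF 3 lay within the Ctrl ALBSF range. Neither difference passed the test, with a log2 change of 0.28 ± 0.10 for embWPC ALBSF against Ctrl ALBSF (SE, edgeR adjusted p = 0.397) and 0.37 ± 0.10 for Ctrl PMBSF against Ctrl ALBSF (adjusted p = 0.108). With the block over the control libraries the second difference was called at 0.36 (adjusted p = 0.0113), and Ctrl PMBSF was higher in 4 of 4 pairs by 0.17 to 0.46. The current annotation places the antisense gene Gm64654 over 59.9% of the exonic bases of Sox2, so reads of that transcript would be counted here unless counting used strand.

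Zfhx3 encodes a large zinc finger homeodomain factor, best known from the circadian clock nucleus of the hypothalamus, and lies on chr8:108669276-109688262 (plus strand). Its libraries held 121, 104, 134 and 105 CPM in embWPC ALBSF, 86.3, 95.7, 111 and 99.0 CPM in Ctrl PMBSF, and 115, 136, 130 and 124 CPM in Ctrl ALBSF. All Ctrl PMBSF libraries were below all Ctrl ALBSF libraries, and embWPC ALBSF spanned both. The log2 change of Ctrl PMBSF against Ctrl ALBSF was -0.37 ± 0.10 (SE, edgeR adjusted p = 0.0853), and with the block over the control libraries it was called at -0.37 (adjusted p = 0.00587). embWPC ALBSF averaged 116 ± 14 CPM, with log2 changes of -0.12 (95% interval -0.33 to 0.08) against Ctrl ALBSF and 0.25 (0.04 to 0.45) against Ctrl PMBSF.

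Shox2, Prox1 and Gbx2, homeodomain factors of thalamic differentiation, did not pass the test in any comparison. Shox2, a factor of relay neurons on chr3:66879058-66889284 (minus strand), varied least, with 47.0, 45.4, 45.3 and 42.7 CPM in embWPC ALBSF, 46.4, 43.3, 41.8 and 45.2 CPM in Ctrl PMBSF, and 44.1, 50.5, 51.7 and 55.6 CPM in Ctrl ALBSF. In 3 of the 4 Ctrl ALBSF libraries it exceeded every library of the other groups. Its log2 changes were -0.16 (95% interval -0.32 to -0.00, edgeR adjusted p = 0.532) for embWPC ALBSF and -0.19 (-0.35 to -0.03, adjusted p = 0.290) for Ctrl PMBSF, each against Ctrl ALBSF. Its exons overlap those of Rsrc1, a gene on the other strand with 1845 to 2716 counts per library, over 13.4% of their length.

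Prox1, the relative of fly prospero that drives neuronal differentiation, lies on chr1:189850232-189904637 (minus strand) and scattered within every group. It held 24.7, 44.3, 30.8 and 57.9 CPM in embWPC ALBSF, 45.5, 35.8, 34.2 and 30.1 CPM in Ctrl PMBSF, and 45.0, 58.2, 52.1 and 31.2 CPM in Ctrl ALBSF. The groups overlapped, and the log2 change of Ctrl PMBSF against Ctrl ALBSF was -0.36 with a 95% interval of -0.86 to 0.15 (edgeR adjusted p = 0.617). Its antisense neighbour Prox1os, with 187 to 478 counts per library, covers 10.9% of its exonic bases.

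Gbx2, on chr1:89855678-89858920 (minus strand), had the widest intervals of the 10. It held 1.91, 14.9, 3.31 and 1.86 CPM in embWPC ALBSF, 6.94, 2.88, 7.70 and 7.22 CPM in Ctrl PMBSF, and 5.43, 6.68, 6.09 and 6.81 CPM in Ctrl ALBSF, from 57 to 460 counts per library. Of the embWPC ALBSF libraries 3 lay below every Ctrl ALBSF library and 1 above them all, and Ctrl PMBSF 2 stood with the low ones. The 95% intervals ran from -1.33 to 0.94 on the log2 scale for embWPC ALBSF against Ctrl ALBSF and from -1.14 to 1.11 for Ctrl PMBSF against Ctrl ALBSF. Without embWPC ALBSF 2 the log2 change against Ctrl ALBSF was -1.41 (edgeR adjusted p = 0.125), in place of -0.19 with it (0.929). The antisense gene D130058E05Rik, with 15 to 88 counts per library, covers 44% of the exonic bases of Gbx2.

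A pair of regulators of neuronal maturation and the Zic pair each varied together across libraries. Over the 12 libraries the highest correlations of log2 CPM among the 10 were between Tcf7l2 and Foxp2 (Pearson r = 0.93) and between Zic1 and Zic4 (0.87), as the plot of these pairs shows. After group means were removed they were 0.80 and 0.71. Foxp2 and Lef1 had 0.61, and 0.77 after group means were removed. Zic4 and Zfhx3 had the lowest value, -0.82, and -0.59 after removal. The 12 points share their groups and the scaling of each library, and these values are descriptions without a test.

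Among 10229 protein coding genes with a mean of at least 5 CPM, the gene most like Tcf7l2 across the 12 libraries was Foxp2 (r = 0.93), followed by Dpysl2, a collapsin response mediator of growing axons (0.92), and Mturn (0.91). Foxp2 was most like Scrn1 (0.95), Crtac1 (0.95) and Mturn (0.95). Zic1 was most like Taf5 (0.95), a subunit of the general factor TFIID, Gadd45g (0.90) and Emb (0.89), and Zic4 was most like Sox13 (0.94), Fuca2 (0.93) and the ATP receptor P2rx2 (0.93). Sox2 was most like Hibch (0.88), Tll1 (0.88) and Ccdc77 (0.87), Zfhx3 like Lrrc4b (0.94), Atrn (0.94) and Fat3 (0.92), and Lef1 like Agap3 (0.90), Rnf19b (0.90) and Dok4 (0.86). Shox2 was most like Npy1r (0.90), Tle5 (0.89) and Ctxn1 (0.87), with r of 0.68, 0.73 and 0.72 without the 2 libraries farthest from the Shox2 median. Prox1 was most like Plekhg5 (0.91), Zfp287 (0.87) and Lrrn3 (0.86). Gbx2 was most like Rab3b (0.90), the calcium-binding protein gene Calb2 (0.88) and Wscd1 (0.87), with r of 0.86, 0.74 and 0.85 without the 2 libraries farthest from the Gbx2 median. After the same omission r was 0.83, 0.72 and 0.72 for Sox2, 0.87, 0.78 and 0.76 for Prox1, and 0.85, 0.79 and 0.78 for Lef1. For Zic1 r was then 0.88, 0.91 and 0.76, and for Zic4 0.83, 0.87 and 0.85. The genes named for Zic1 and Zic4 all peaked in Ctrl PMBSF 1. For Tcf7l2, Foxp2 and Zfhx3 r stayed at 0.85 to 0.94.

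Close relatives of the 10 and other regulators of the diencephalon gave calls in both directions between the control territories. Of 14 paralogs 12 were tested, and 1 rose and 1 fell in Ctrl PMBSF, where 1.62% of all genes were called, with a median log2 change of -0.21 against 0.00 over all genes. Prox2, the relative of Prox1, was higher at 1.92 CPM in Ctrl PMBSF against 0.671 CPM in Ctrl ALBSF (log2 change 1.51 ± 0.23 SE, edgeR adjusted p = 0.00356), and Foxp1 was lower, as given above. Of 37 other thalamic and diencephalic transcription factors 34 were tested, with 3 higher and 4 lower, against the same 1.62% of all genes, and a median of -0.05. Ebf1, an early B-cell factor of differentiating neurons, was higher at 22.4 CPM in Ctrl PMBSF against 9.69 CPM in Ctrl ALBSF (1.21 ± 0.15, adjusted p = 0.00101), and the POU factor Pou2f2 was higher at 72.8 CPM in Ctrl PMBSF against 35.4 CPM in Ctrl ALBSF (1.04 ± 0.12, adjusted p = 0.00101). Rorb, a nuclear receptor of sensory thalamus and cortical layer 4, was lower at 33.4 CPM in Ctrl PMBSF against 74.95 CPM in Ctrl ALBSF (-1.17 ± 0.12, adjusted p = 0.000293). The nuclear receptor gene Nr2f2 (-1.13), the LIM-only gene Lmo4 (-1.02) and the ETS factor gene Etv1 (-0.74) were lower as well. The third gene to rise was Rora, named after its values were seen.

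In the upper lip territory of embWPC pups 2 of these 34 regulators passed the test against Ctrl ALBSF, where 0.0629% of all genes did. Pou2f2 was higher at 59.1 CPM in embWPC ALBSF against 35.4 CPM in Ctrl ALBSF (log2 change 0.74 ± 0.12 SE, edgeR adjusted p = 0.0486), and Lmo4 was lower at 18.7 CPM in embWPC ALBSF against 35.4 CPM in Ctrl ALBSF (-0.92 ± 0.15, adjusted p = 0.0486). Leaving out any 1 of the embWPC ALBSF libraries, Ctrl ALBSF 3 or Ctrl ALBSF 4 ended both calls, with adjusted p up to 0.212. Both also missed the threshold with the meningeal level in the fit (edgeR adjusted p = 0.0756 for Pou2f2 and 0.0884 for Lmo4), with library totals only (0.0835 and 0.0523), with the CPM filter (0.0527 and 0.0514) and with the block over 12 libraries (0.0527 and 0.0591), and Pou2f2 in the fit of the 2 groups only (0.0750). With the block over these 2 groups edgeR gave adjusted p = 0.210 for Pou2f2 and 0.150 for Lmo4. Lmo4 also missed it with the mean level of the astrocyte markers in the fit (edgeR adjusted p = 0.0636). Of the 15 meningeal markers 14 had a lower value in embWPC ALBSF than in Ctrl ALBSF, with a median log2 change of -0.80. No paralog passed in edgeR, and the smallest p values were those of Foxp1 (-0.83 ± 0.18, adjusted p = 0.101) and Prox2 (0.91 ± 0.23, adjusted p = 0.176). Against Ctrl PMBSF edgeR called no regulator of these lists, and Rorb had a log2 change of 0.75 ± 0.12 (adjusted p = 0.154) and Ebf1 of -0.81 ± 0.14 (0.181). Against Ctrl ALBSF, DESeq2 called 6 of the regulators and 1 paralog among 168 genes, and voom 4 and 1 among 75. The fit with no count filter called 6 and 1 among 121. Against Ctrl PMBSF, 2 regulators were called by DESeq2 and 2 with no count filter, each among 72 genes, and 0 by voom.

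Wnt pathway genes, the partners and targets of Tcf7l2 and Lef1, included secreted inhibitors and a receptor that were higher in the whisker pad territory. All 26 listed genes were tested, and 4 rose and 1 fell in Ctrl PMBSF against Ctrl ALBSF, where 1.62% of all genes were called, with a median log2 change of -0.05. Wif1, a secreted Wnt inhibitor, was at 4.01 CPM in Ctrl PMBSF against 0.858 CPM in Ctrl ALBSF (2.22 ± 0.34 SE, edgeR adjusted p = 0.00391). Lgr5, a receptor for R-spondins, rose by 1.49, Sfrp2, a secreted Frizzled-related protein, by 0.61, and Bambi, a membrane pseudoreceptor, by 0.50. Lgr5 was at a low level, 1.53 CPM in Ctrl PMBSF against 0.543 CPM in Ctrl ALBSF (edgeR adjusted p = 0.0440). Tle5, a short member of the Groucho family of corepressors, was at 391.8 CPM in Ctrl PMBSF against 513 CPM in Ctrl ALBSF (-0.39 ± 0.09, adjusted p = 0.0459). The calls of Lgr5 and Tle5 ended without Ctrl PMBSF 1, 2 or 3, and likewise without Ctrl ALBSF 2, 3 or 4 (edgeR adjusted p up to 0.169 and 0.171), and that of Bambi without Ctrl ALBSF 4 (0.0566). In the fit of the 2 groups only, Lgr5 (0.0833) and Tle5 (0.0766) also missed the threshold. So did Lgr5 with the mean level of the astrocyte markers in the fit (0.0688). Tle5 missed it with library totals only (0.118) and with the block over 12 libraries (0.0710). None of the 26 was called by edgeR with embWPC ALBSF against either control territory. DESeq2 called 2 of them against Ctrl ALBSF and 2 against Ctrl PMBSF, where it called 168 and 72 genes. With no count filter 0 and 2 were called, and voom called 0 in both comparisons.

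Genes of mature relay neurons, the channels, receptors and cytoskeletal proteins of thalamocortical cells, gave calls in both directions between the control territories. Of 24 listed 23 were tested, and 4 rose and 1 fell in Ctrl PMBSF against Ctrl ALBSF, where 1.62% of all genes were called, with a median log2 change of 0.11. Tnnt1, a troponin gene that marks thalamic neurons, was at 33.9 CPM in Ctrl PMBSF against 12.7 CPM in Ctrl ALBSF (1.42 ± 0.18 SE, edgeR adjusted p = 0.00147). Htr1b, a serotonin receptor of thalamocortical axons, rose by 0.84 and the peptide receptor gene Vipr2 by 0.74, while Synpo2, an actin-binding protein gene, fell by 0.80. The call of Vipr2 ended without Ctrl PMBSF 1 or 2, and likewise without Ctrl ALBSF 2, 3 or 4 (edgeR adjusted p up to 0.0887). With the block over the control libraries 8 of the 23 were called, where the share over all genes was also higher, at 5.04%. With the meningeal level in the fit Etv1, Sfrp2, Lgr5, Tle5, Synpo2 and Vipr2 missed the threshold, with adjusted p from 0.0537 to 0.151. None of the relay genes was called by edgeR with embWPC ALBSF, for which Htr1b had the smallest p against Ctrl ALBSF (0.56 ± 0.12, adjusted p = 0.101). Against Ctrl ALBSF, DESeq2 called 4 relay genes among 168 genes, voom 2 among 75 and the fit with no count filter 3 among 121. Against Ctrl PMBSF, 1 was called by DESeq2 and 1 with no count filter, each among 72 genes, and 0 by voom.

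**Figure D5:**
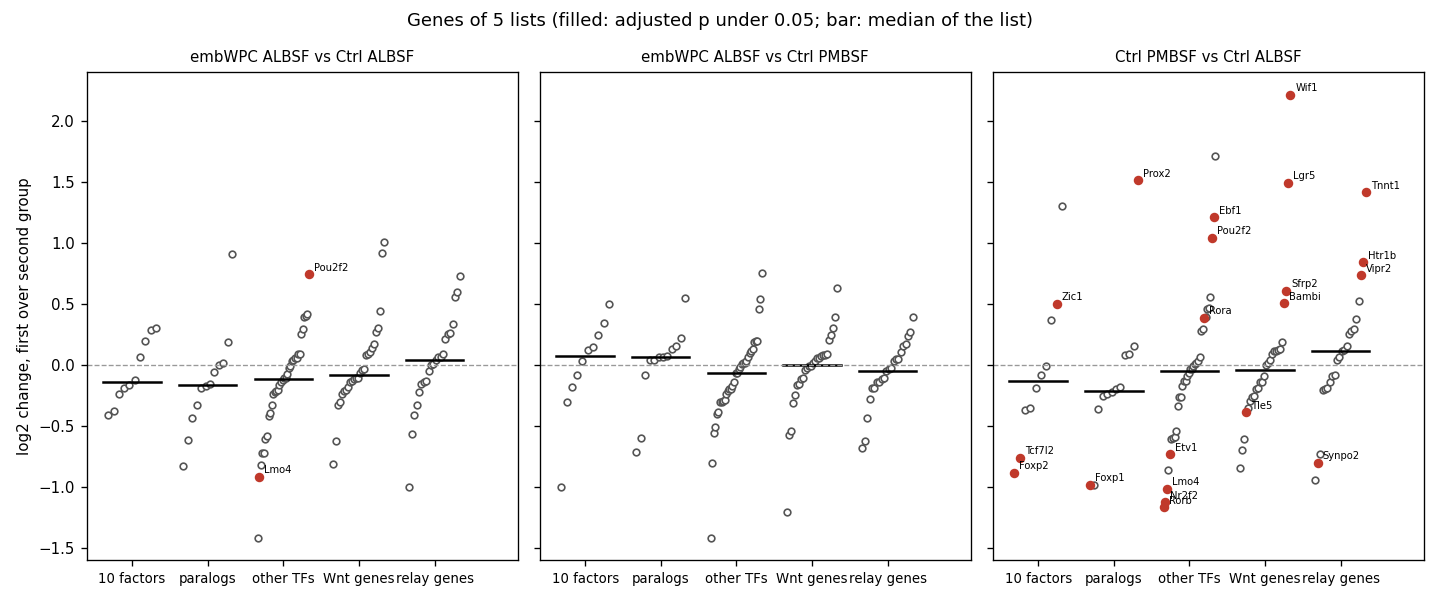
Log2 change of the tested genes of 5 lists, leaving out 1 relay gene, in the 3 comparisons, the first named group over the second, with genes sorted within a list and the bar at the list's median. Filled and named points passed an adjusted p under 0.05 in edgeR. Calls lie on both sides of 0 in Ctrl PMBSF against Ctrl ALBSF, and Pou2f2 and Lmo4 are the only ones with embWPC ALBSF.

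Markers of the tissues around the nucleus gave 3 calls by edgeR, all in Ctrl PMBSF against Ctrl ALBSF, while several lists lay to one side in each of the 3 comparisons. Of the habenula list 9 of 15 genes were tested, and in Ctrl PMBSF against Ctrl ALBSF Nhlh2 rose by 1.05 and Nwd2 fell by 0.90 on the log2 scale. Nhlh2 was at 96.6 CPM in Ctrl PMBSF against 46.6 CPM in Ctrl ALBSF, and missed the threshold with the meningeal level in the fit (edgeR adjusted p = 0.0853). Of the oligodendrocyte list Sox10 fell by 0.67, which did not pass when Ctrl PMBSF 3, Ctrl PMBSF 4, Ctrl ALBSF 2 or Ctrl ALBSF 3 was left out (adjusted p up to 0.0839), with the meningeal level in the fit (0.0650) or with library totals only (0.131). Of the 12 oligodendrocyte markers 8 were lower in Ctrl PMBSF and 4 higher (median log2 change -0.34), with 7 at an unadjusted p under 0.05. Their sum was 476 to 485 CPM in Ctrl PMBSF libraries and 502 to 639 CPM in Ctrl ALBSF libraries. The meningeal, prethalamic, midbrain, cortical, astrocyte, vessel, choroid plexus, microglia, erythroid and cell cycle lists gave 0 calls in any of the 3 comparisons by edgeR. Between the control territories, values were lower in Ctrl PMBSF for 10 of 10 microglia markers (median log2 change -0.26), 6 of 6 erythroid markers (-0.36) and 18 of 21 vessel markers (-0.22). So were 15 of 18 astrocyte markers (-0.11) and 13 of 15 cell cycle genes (-0.15), while 14 of 15 meningeal markers were higher (1.29). Against Ctrl PMBSF, values were lower in embWPC ALBSF for 15 of 15 meningeal markers (median log2 change -1.99, 11 at an unadjusted p under 0.05) and 15 of 15 prethalamic markers (-0.71, 2 at that level). Vessel markers went the other way there, with 18 of 21 higher in embWPC ALBSF (0.23, 6 at that level). Against Ctrl ALBSF, values were lower in embWPC ALBSF for 13 of 15 prethalamic markers (-0.56, 1 at an unadjusted p under 0.05), 6 of 6 erythroid markers (-0.71, 4), 7 of 8 choroid plexus markers (-1.02, 3) and 10 of 10 microglia markers (-0.48, 1). Medians over all genes were -0.02 for embWPC ALBSF against Ctrl PMBSF, -0.01 for embWPC ALBSF against Ctrl ALBSF and 0.00 for Ctrl PMBSF against Ctrl ALBSF. The part of these lists in the values of the 10 factors was not tested beyond the fits with meningeal and astrocyte levels, and with the astrocyte level Foxp2, Tcf7l2 and Zic1 were called between the control territories as before.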

How the data were processed

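Poly-A selected RNA was sequenced from 12 pooled libraries, 4 in each of 3 groups, as pairs of reads on a NovaSeq, per the labels' protocols. The deposited values are raw counts per Ensembl gene. Per the series' design text and the submitters' processing notes, the authors checked reads with FastQC 0.11.9, aligned them to GRCm39 with STAR 2.7.9a, used SAMtools 1.15, counted on Ensembl release 104 with featureCounts of Subread 2.0.1 and ran DESeq2 1.32, and mm10 is also listed as a build. Strand, multimapping and pair settings are not given in the sources used here. Symbols came from GENCODE M39, which matched 54749 of the 55359 identifiers. Every pair of libraries differed beyond sampling noise (chi-square at least 14 times its degrees of freedom), so none was treated as a duplicate.

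Counts were tested with edgeR 4.0.16 in R 4.3.3, by the quasi-likelihood test with TMM normalization and group as the term, over 17501 genes kept by filterByExpr (minimum count 10). Benjamini-Hochberg adjustment ran over all of these, genes were called at an adjusted p under 0.05, log2 CPM used a prior count of 2, and intervals are at 95%. The biological coefficient of variation was 15.8%. The labels do not say whether pools share litters or days. This fit has no term for the library number, so its p-values treat all pools as independent. Same-numbered control libraries deviated together, as given below, so for the control territories these p-values do not measure the spread within pairs. The fit was tested on simulated counts with known changes, drawn with the same dispersion for every gene and with independent libraries. That simulation does not cover the pairing of the control libraries or spread that differs between genes. Ratios of counts were compared by exact permutation tests, of which 4 against 4 cannot give a p below 0.0286. Alternatives used DESeq2 1.42.0, limma 3.58.1 with voom and quality weights, other scalings and filters, marker covariates, replicate blocks and omitted libraries.

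Replicate numbers in the labels paired the control libraries. Deviations from group means of same-numbered Ctrl PMBSF and Ctrl ALBSF libraries correlated at 0.473, 0.265, 0.401 and 0.562, each library best with its own number.

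The 10 factors and the 17 gene lists were chosen with earlier results of these data known. The text names all 10, in each list the called genes (at most 6 per comparison, smallest p first) or the 2 with the smallest p where the list had no call, and the 3 genes most like each factor among protein coding genes with a mean of at least 5 CPM. For lists of surrounding tissues only the calls are named. Some genes that this rule would name are not reported here.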

Additional observations from a re-analysis of the deposited data

Results flagged for a closer look

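Gbx2 was the one factor in which a single library stood far from the others of its group, by Dixon's test at the 95% level, in 2 of 36 groups of 4 libraries checked, and chance alone gives about 1 in 20. embWPC ALBSF 2 held 14.9 CPM of Gbx2, against 1.86 to 3.31 CPM in the other embWPC ALBSF libraries. Ctrl PMBSF 2 held 2.88 CPM, against 6.94 to 7.70 CPM in the other Ctrl PMBSF libraries. embWPC ALBSF 2 also held the highest Tcf7l2, Foxp2, Lef1, Zic1 and Zic4 of its group.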

How the results depend on the processing

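Between Ctrl PMBSF and Ctrl ALBSF, where edgeR called 284 genes and 3 of the 10 factors, DESeq2 called 509 and 6, voom 443 and 5, the fit with the meningeal level 174 and 1, and the replicate block over 2 groups 857 and 6. Without the count filter 398 genes and 5 factors were called. Leaving out single libraries gave 127 to 249 genes and 1 to 4 factors. Between embWPC ALBSF and Ctrl ALBSF, with 11 genes called, library totals only gave 7, DESeq2 168, voom 75, no count filter 121, the CPM filter 5, the meningeal level 19, the astrocyte level 22, the replicate block 23 over 12 libraries and 1 over 2 groups, and omitted libraries 1 to 22. Between embWPC ALBSF and Ctrl PMBSF, with 1 gene called, DESeq2 gave 72, no count filter 72 and 1 factor (Zic4), the meningeal level 4, the replicate block 3 over 12 libraries and 0 over 2 groups, and omitted libraries 1 to 3. Same-numbered embWPC ALBSF and control libraries did not deviate together, with correlations of -0.223 to 0.0670 against Ctrl ALBSF and -0.160 to 0.0437 against Ctrl PMBSF.

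The Lef1 to Tcf7l2 ratio differed by 0.67 on the log2 scale between the control territories, a mean that pairing cannot change, with an exact p of 0.125 when same-numbered pairs were used as a replicate block, the smallest that 4 pairs allow. It ranged from 0.59 to 0.79 without single libraries. It ranged from 0.42 to 0.59 for embWPC ALBSF against Ctrl ALBSF. The Zic1 to Zic4 ratio there ranged from -0.24 to 0.069, being 0.069 without Ctrl ALBSF 4 and 0.03 without embWPC ALBSF 2.

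Signs turned for factors near 0, none of them called. Gbx2 in Ctrl PMBSF against Ctrl ALBSF gave 0.10 with library totals only, 0.083 with the replicate block over 12 libraries, 0.11 with the meningeal level and -0.13 to 0.22 without single libraries. Gbx2 in embWPC ALBSF ranged from -1.41 to 0.11 against Ctrl ALBSF and from -1.40 to 0.13 against Ctrl PMBSF. Library totals only gave 0.018 for Lef1 in Ctrl PMBSF against Ctrl ALBSF and -0.042 for Shox2 in embWPC ALBSF against Ctrl PMBSF. The meningeal level gave -0.030 for Zic4 in embWPC ALBSF against Ctrl ALBSF and -0.17 for Prox1 in embWPC ALBSF against Ctrl PMBSF, and Prox1 there ranged from -0.12 to 0.29 without single libraries. The cause of these shifts was not tested. Foxp2 kept its call between the control territories under each alternative run except the meningeal level. Gbx2 had 57 to 460 counts per library, the fewest of the 10 factors.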
